A study of Mus musculus with 70 samples.

Results

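Common lymphoid progenitors (CLP) lacking Tcf7 were compared with wild-type CLP, both sorted from mouse bone marrow. Samples were taken by their labels: cell type CLP, with the source TCF7 for the knockout and WT for the control. This gave 15 samples of the 70 in the series. A pair of the 15 are technical repeats of a wild-type library and were added to it, which left 13 libraries (8 wild type and 5 knockout) of 66 in all. The design text gives the knockout mice as TCF7-/- and names no other allele, agent or treatment in either group. Strain, age, sex and the deleted piece of the gene are not given in the sources used here. The labels also do not say whether libraries of a group came from separate mice, so p-values measure a spread between libraries, which may be partly technical. For edgeR this spread was estimated over 47 libraries of several populations and genotypes, and for the permutation tests over the 13 CLP libraries. Each library held 100 cells sorted into lysis buffer. It was made by CEL-seq, a method that amplifies RNA with a poly(A) tail by in vitro transcription and sequences its 3′ end. The libraries belong to 2 labelled batches. Batch 1 held 3 wild-type and 3 knockout CLP libraries, and batch 2 held 5 and 2.

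Tcf7 encodes TCF-1, a DNA-binding protein of the TCF and LEF family that can pair with β-catenin downstream of Wnt signals or with Groucho (TLE) corepressors. It acts early in T cell and innate lymphoid cell (ILC) development and is switched on as lymphoid progenitors leave the CLP stage for these lineages. CLP carry the receptors IL-7Rα and FLT3, begin to express the recombination machinery, and can give rise to B, T and innate lymphoid cells. The next step towards ILC in this series is the CILP, the common innate lymphoid progenitor.

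Library totals ran from 81976 to 246119 counts in wild-type CLP (median 140518) and from 72272 to 230469 in knockout CLP (median 140651). Genes with a count ranged from 6835 to 8589 and from 5762 to 9059. Adjusted for batch, neither differed beyond the spread between libraries (exact 2-sided permutation within batch, p = 0.867 for log2 totals and p = 0.379 for genes). The direction differed between the batches. Both knockout libraries of batch 2 held fewer genes (5995 and 5762) than any of the 5 wild-type libraries there (6835 to 8371), whereas in batch 1 knockout libraries held 7694 to 9059 genes against 7348 to 8589. At these depths 3 counts in a library correspond to 14.3 to 38.5 CPM (counts per 1e6 of the scaled library total), and a gene listed at 0 may lie up to that level. Counts carry no stated molecular identifiers, so such limits cover counting error only. All 13 libraries held transcripts of the Y-linked gene Ddx3y (66.1 to 711 CPM), and Xist was seen in 1 of 13 at 6.11 CPM.

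The main result in CLP was the absence of a called change. Of 10972 genes tested with edgeR's quasi-likelihood test, 0 passed a Benjamini-Hochberg adjusted p of 0.05 (0.0%), and the smallest adjusted p was 0.0612. Of these 10972, 513 had no count in any of the 13 CLP libraries and passed the filter on low counts through other populations. They could not be called in CLP, but they enter the shares, medians and counts of fitted signs given here. At an unadjusted p under 0.05 there were 713 genes (6.5%), 355 higher (3.24%) and 358 lower (3.26%) in the knockout. DESeq2 called 1 gene (Trbc2) and limma-voom with quality weights called 9. The median log2 fold change over all genes was -0.13 (-0.06 with DESeq2's size factors). Of all 10972 genes, 4908 were fitted above 0 and 6048 below, the base for the signs counted in lists. The spread limited what could be seen. The biological coefficient of variation was 109.7% over the 47 libraries of the fit, and was not estimated for CLP alone. The median standard error (SE) of a log2 fold change in CLP was 1.16. Each SE belongs to the change before shrinkage by the prior count, so a printed change over its SE need not match its p-value. Among the 2412 genes at a mean of 100 CPM or more the median SE was 0.75. For 55.1% of these 2412 genes the approximate 95% interval of the change lay wholly within 4-fold in either direction, and for 1.99% it lay within 2-fold. In pools of 100 cells, fewer cells with a transcript and less of it per cell cannot be told apart.

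**Figure D1:**
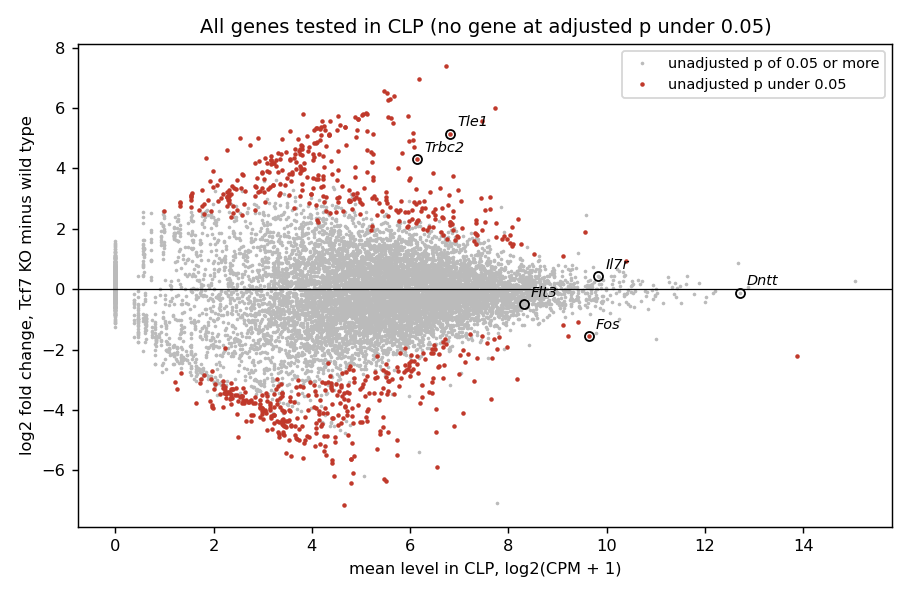
Each point is 1 of 10972 genes, plotted by its mean level in CLP in log2(CPM + 1) on the horizontal axis and its fitted log2 fold change, knockout minus wild type, on the vertical axis. Red points are the 713 genes with an unadjusted p under 0.05, which lie mostly at the edges of the cloud at low levels, and circles mark 6 named genes.

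Tcf7 itself was at the limit of detection in wild-type CLP. The gene lies on chromosome 11, 52246527 to 52283383, on the minus strand of GRCm38. Over 8 wild-type CLP libraries it had 1 count in all, in replicate 4 (8.17 CPM), and the other 7 libraries were at 0. The 5 knockout CLP libraries held 26.8, 0, 13.1, 0 and 19.9 CPM, which are 3, 0, 2, 0 and 4 counts. The groups overlapped at 0, and the knockout was not lower. The fitted log2 fold change was 3.21 (SE 1.53), with an adjusted p of 0.565 by edgeR, and the exact permutation test of log2(CPM + 1) within batch gave p = 0.0571. Wild-type CILP, by contrast, had 445 ± 253 CPM (SD, n = 7), with 166 in the lowest and 779 in the highest library. CILP labelled TCF7 held 0, 63.4, 25.5 and 35.6 CPM, and their ranges did not overlap with the wild type. The difference in CILP had an adjusted p of 0.157 by edgeR and was not called. Since wild-type CLP hardly contained the transcript, its level cannot check the genotype label in CLP. A 3′ tag may also lie outside the deleted piece, so counts in knockout libraries do not measure protein.

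The remaining members of the family gave no call either. Tcf7l2, a relative that binds similar DNA sites, was the most abundant, at 112 ± 96.0 CPM (SD, n = 8) in wild-type and 107 ± 36.6 (n = 5) in knockout CLP, with a log2 fold change of 0.20 (SE 1.02). Lef1, another relative of Tcf7 in lymphocytes, was listed at 0 in all 8 wild-type libraries. It had 6.53 and 4.76 CPM in knockout replicates 3 and 4 and 0 in the others. Tcf7l1 was seen in 1 library of each group (6.11 and 4.97 CPM). Of the 4 members, 0 were called and 1 (Tcf7) had an unadjusted p under 0.05, beside 6.5% of all genes (edgeR).

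The genes that define CLP were present in both genotypes. Of the 9 gate and identity genes 0 passed the test, as among all genes tested. An unadjusted p under 0.05 was found for 0 of the 9, where 6.5% of all genes had one (edgeR). The list's median log2 fold change was 0.10, beside -0.13 for all genes. Il7r, the IL-7 receptor α chain, had a lowest, median and highest value of 376, 778 and 1258 CPM in wild type. The knockout libraries held 1752, 821, 823, 948 and 825 CPM. All 5 knockout values lay above the wild-type median but within its range, except replicate 1. The log2 fold change was 0.43 (SE 0.47, approximate 95% interval -0.52 to 1.38). Flt3, the receptor for FLT3 ligand, had 178, 448 and 575 CPM in wild type, and 286, 295, 170, 200 and 209 CPM in the knockout. All 5 knockout libraries were below the wild-type median. In batch 2 the knockout values of 286 and 295 lay under all 5 wild-type values (443 to 575), whereas in batch 1 the ranges overlapped (170 to 209 against 178 to 352). The fitted log2 fold change was -0.50 (SE 0.73, interval -1.98 to 0.97).

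Ly6d, which marks CLP inclined towards the B lineage, was the most abundant of the 9. It had 1845, 2935 and 5970 CPM in wild type and 2342, 1334, 1182, 3960 and 3692 CPM in the knockout, with a log2 fold change of -0.47 (SE 0.95). Kit, the stem cell factor receptor, averaged 122 ± 95.7 against 99.2 ± 59.5 CPM, and 1 knockout library (replicate 5) held only 4.97 CPM. Ly6a, which encodes Sca-1, averaged 128 ± 138 against 148 ± 126 CPM. Cd27, a TNF receptor family member on lymphoid progenitors, averaged 75.6 ± 46.9 against 123 ± 56.5 CPM. The progenitor sialomucin gene Cd34 averaged 251 ± 160 against 293 ± 146 CPM. The integrin chains that form α4β7 were also measured: Itga4 averaged 358 ± 147 against 244 ± 111 CPM, and Itgb7 averaged 59.2 ± 86.3 against 62.2 ± 92.0 CPM. Fitted log2 changes of these last 6 genes ran from -0.58 to 0.40, and wild-type and knockout ranges overlapped for every one of the 9.

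**Figure D2:**
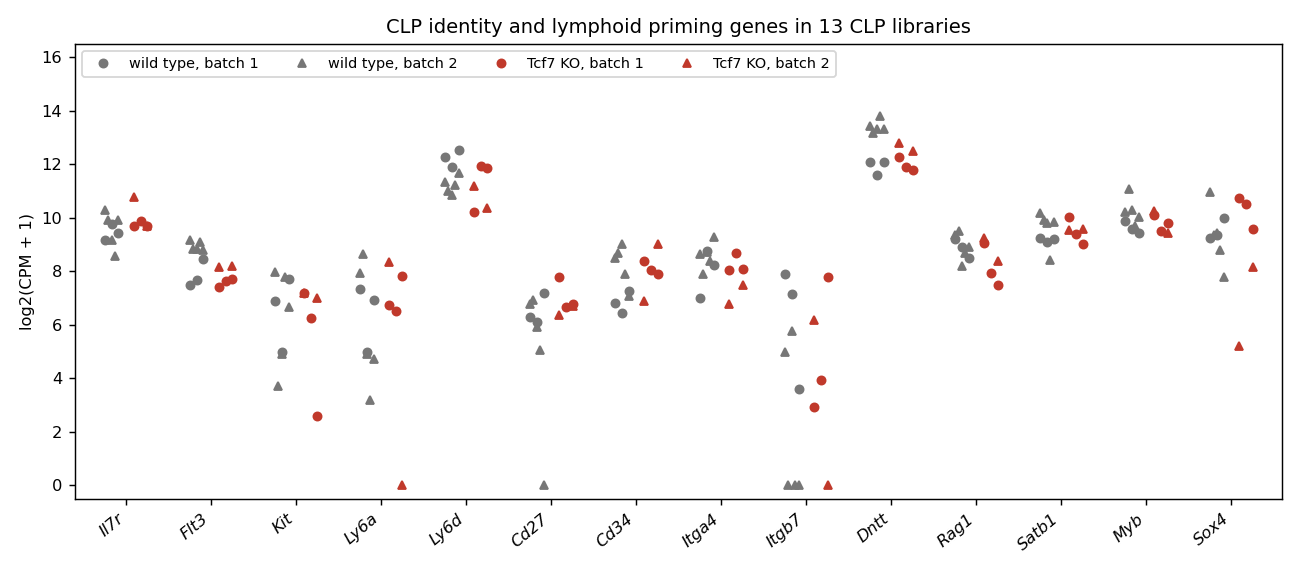
Values of 9 CLP identity genes and 5 lymphoid priming genes in the 13 CLP libraries, in log2(CPM + 1), with grey for wild type, red for knockout, circles for batch 1 and triangles for batch 2. The red and grey points overlap for each gene, and Dntt separates by batch in wild type (9123 to 14360 CPM in batch 2, 3096 to 4373 in batch 1).

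Recombination and lymphoid priming genes were likewise without a call. Of 14 genes, all were tested, 4 were fitted above 0 and 10 below, and the median log2 change was -0.06. An unadjusted p under 0.05 was found for 0 of them, beside 6.5% of all genes (edgeR). Dntt, which encodes the terminal transferase that adds bases to antigen receptor joints, was the most abundant gene of this list. It had 3096, 9730 and 14360 CPM in wild type, and 7072, 5758, 4985, 3817 and 3518 CPM in the knockout. The level depended on batch. In batch 2 both knockout values (7072 and 5758) were below all wild-type ones (9123 to 14360), and in batch 1 they overlapped (3518 to 4985 against 3096 to 4373). The batch-adjusted log2 change was -0.11 (SE 0.94, interval -2.02 to 1.796). Rag1, which encodes a subunit of the V(D)J recombinase, had 294, 479 and 733 CPM in wild type. It had 608, 333, 536, 243 and 179 CPM in the knockout, with a log2 change of -0.25 (SE 0.86). Among its transcription factor genes, Myb, needed for lymphoid progenitors, averaged 1111 ± 468 against 928 ± 235 CPM (log2 change -0.04, SE 0.47). Satb1, a chromatin organiser, averaged 752 ± 269 against 748 ± 190 CPM (0.10, SE 0.52). Sox4 averaged 785 ± 536 against 850 ± 723 CPM (-0.03, SE 0.70), with 35.8 CPM in knockout replicate 1 and 1712 in replicate 3. Runx3 averaged 96.3 ± 56.0 against 100 ± 95.5 CPM. Ikzf3 was seen in 1 knockout library only, at 14.3 CPM.

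Early B lineage genes showed 0 calls among 18 tested, 8 fitted above 0 and 10 below, with a median of -0.06. The surrogate light chain genes had the smallest p-values in the list. Igll1 (λ5) had 0, 36.9 and 122 CPM in wild type and 268, 77.0, 124, 85.8 and 164 CPM in the knockout. All 5 knockout values exceeded the wild-type median, and 3 exceeded the wild-type maximum. The log2 change of 1.89 (SE 1.11) had an unadjusted p of 0.0823 and an adjusted p of 0.820 by edgeR. Vpreb1 averaged 103 ± 106 against 197 ± 121 CPM (log2 change 1.85, SE 1.16, adjusted p 0.833 by edgeR). Vpreb3 averaged 252 ± 152 against 254 ± 272 CPM. Blnk and Syk, which encode a pre-B cell receptor adaptor and kinase, averaged 558 ± 245 against 404 ± 206 CPM and 291 ± 171 against 281 ± 162 CPM.

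Most genes of the ILC programme were scarce in CLP of either genotype. Of 16 ILC regulators, 4 were at 0 in all 13 libraries, and Il2rg, Ets1 and Lmo4 were the only ones in the list that stood at 50 CPM or more in the mean of both groups. Ets1 averaged 182 ± 65.0 against 163 ± 52.9 CPM, Il2rg (the common cytokine receptor γ chain) 105 ± 57.8 against 67.8 ± 52.7 CPM, and Lmo4 (a LIM-only transcriptional cofactor) 107 ± 45.5 against 165 ± 101 CPM. Il18r1 averaged 89.4 against 37.1 CPM (log2 change -1.28, SE 0.77, unadjusted p = 0.0947, edgeR). Of the 16 regulators, 8 were fitted above 0 and 8 below. Gata3, a regulator of ILC and T cells, rested on wild-type replicates 4 and 5 (588 and 259 CPM). The other 6 wild-type libraries held 0 to 23.9 CPM, and the knockout libraries held 17.9, 0, 58.8, 0 and 0 CPM. The log2 change was -2.33 (SE 1.21), with an unadjusted p of 0.0565. Gata3 also had 33 counts over the 12 control wells with spike-in RNA alone. The part of stray counts in this difference was not tested. Id2, an inhibitor of E proteins that marks ILC commitment, was seen in 2 wild-type libraries (8.17 and 84.8 CPM) and in no knockout library. It was not called (unadjusted p = 0.0436, edgeR), and the higher level came from wild-type replicate 6 alone. Id2 had 14 counts over the 12 control wells. The groups overlapped at 0. Of 10 tested group 2 ILC genes, 3 were fitted above 0 and 7 below. At an unadjusted p under 0.05, 3 were lower and 0 higher (edgeR), where 3.26% of all genes were lower. Their median log2 change of -1.47 was the lowest in CLP of the 28 lists, beside -0.13 for all genes. It includes tested members with no CLP count, such as Arg1, whose fitted values are not measured changes. Il1rl1, among the 3 lower genes, averaged only 3.06 CPM in wild-type CLP. The median is therefore not read as a shift. The 14 members summed to 8.36 to 132 CPM in wild type and 6.53 to 119 CPM in the knockout, and 6 were at 0 in all 13 libraries.

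T lineage genes and TCF-1 target genes in lymphocytes gave 0 calls in 16 and 15 tested genes. At an unadjusted p under 0.05, edgeR had 3 T lineage genes higher and 1 lower, and 2 targets higher and 1 lower, where 3.24% of all genes were higher and 3.26% lower. Their median log2 changes were 0.52 and 0.47, and 5 of 18 and 4 of 17 listed members were at 0 in every CLP library, Cd3e among them. These medians include tested members at 0 in every CLP library, whose fitted values are not measured changes. The target median equals the fitted value of Themis, which had no CLP count, so neither median is read as a shift. Bcl11b, a zinc finger factor that fixes the T cell fate and is active in ILC progenitors, is on both lists. In wild type it was seen in 1 of 8 libraries, at 5.96 CPM. The knockout libraries held 17.9, 12.8, 0, 0 and 14.9 CPM, so the groups overlapped at 0 (log2 change 2.45, SE 1.38, unadjusted p = 0.0197, adjusted p = 0.641, edgeR). Lck, the Src family kinase of the T cell receptor, was already present at 187 ± 91.9 CPM in wild type and 220 ± 137 CPM in the knockout. Lat averaged 53.2 ± 74.2 against 19.5 ± 19.6 CPM, and Cd28 averaged 20.6 ± 26.3 against 50.2 ± 79.3 CPM.

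Trbc2, a constant segment of the T cell receptor β chain, had the smallest p-value of all genes. Wild-type libraries held 7.67, 17.9, 29.4, 0 and 33.4 CPM in batch 2 and 0 in all 3 of batch 1. Knockout libraries held 501 and 38.5 CPM in batch 2, and 98.0, 0 and 0 in batch 1. Knockout replicate 1 stood far above all others, and the groups overlapped. The log2 change was 4.32 (SE 0.94), with an adjusted p of 0.0612 by edgeR. Without knockout replicate 1 it was 3.28, with an adjusted p of 0.384. Leaving out knockout replicate 2, 4 or 5 instead brought it under the threshold (adjusted p 0.0114 to 0.0146). Over all 23 alternatives its adjusted p ran from 0.00113 to 1.0. The near-identical segment Trbc1 had 38.3, 5.96 and 14.7 CPM in 3 wild-type libraries and 0 elsewhere. How reads of this pair were assigned between the genes was not tested, so their separate levels are uncertain.

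No Wnt pathway gene passed the test, as no gene of any kind did. Of 22 machinery genes tested, 0 were called, 10 were fitted above 0 and 12 below, and the median log2 change was -0.15. For 7 tested Wnt targets it was -0.27, with 0 calls. Among corepressors that bind TCF proteins, Ctbp1 averaged 333 ± 187 against 230 ± 139 CPM, and Tle3 averaged 167 ± 75.1 against 304 ± 212 CPM (log2 change 0.68, SE 0.67). Tle1 was the exception in size: wild type had 0, 8.17 and 42.4 CPM, and the knockout libraries had 948, 0, 45.7, 47.6 and 14.9 CPM. Only replicate 1 was high beyond the others. The log2 change of 5.15 (SE 1.39, adjusted p 0.422, edgeR) dropped to 0.02 without that library. Csnk1a1, a kinase that primes β-catenin for destruction, averaged 383 ± 195 against 288 ± 173 CPM. The target genes Ccnd1 (cyclin D1) and Cd44 averaged 276 ± 366 against 170 ± 140 and 214 ± 108 against 194 ± 106 CPM.

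Notch, E protein, cell cycle, stem cell and immediate early genes gave 0 calls. Notch1 averaged 432 ± 211 against 380 ± 322 CPM, and its target Hes1 averaged 118 ± 67.2 against 147 ± 137 CPM. The median log2 change of 10 Notch pathway genes was 0.73. E proteins drive lymphoid genes, and Id proteins block them. Tcf3 (E2A) averaged 301 ± 275 against 268 ± 93.3 CPM and Tcf12 (HEB) 123 ± 83.9 against 89.4 ± 67.7 CPM. Id3 was found in 4 wild-type libraries (up to 71.5 CPM) and 1 knockout library (4.76 CPM). Of 32 tested cell cycle genes, 15 were fitted above and 17 below 0, with a median of -0.15. The stem and multipotent progenitor list had a median of 0.16 over 13 genes, with Lmo2 at 351 ± 190 against 256 ± 392.3 CPM and Cd48 at 247 ± 143 against 336 ± 476 CPM. Immediate early and heat shock genes had a median of -0.28, with 15 of 21 fitted below 0, beside 6048 of all 10972 genes. Fos had 334, 872 and 2663 CPM in wild type and 626, 449, 71.9, 248 and 487 CPM in the knockout. All 5 knockout values lay below the wild-type median. In batch 1 the ranges did not overlap (71.9 to 487 against 543 to 991), and in batch 2 they did. The log2 change was -1.56 (SE 0.64, unadjusted p = 0.0187, adjusted p = 0.641, edgeR).

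**Figure D3:**
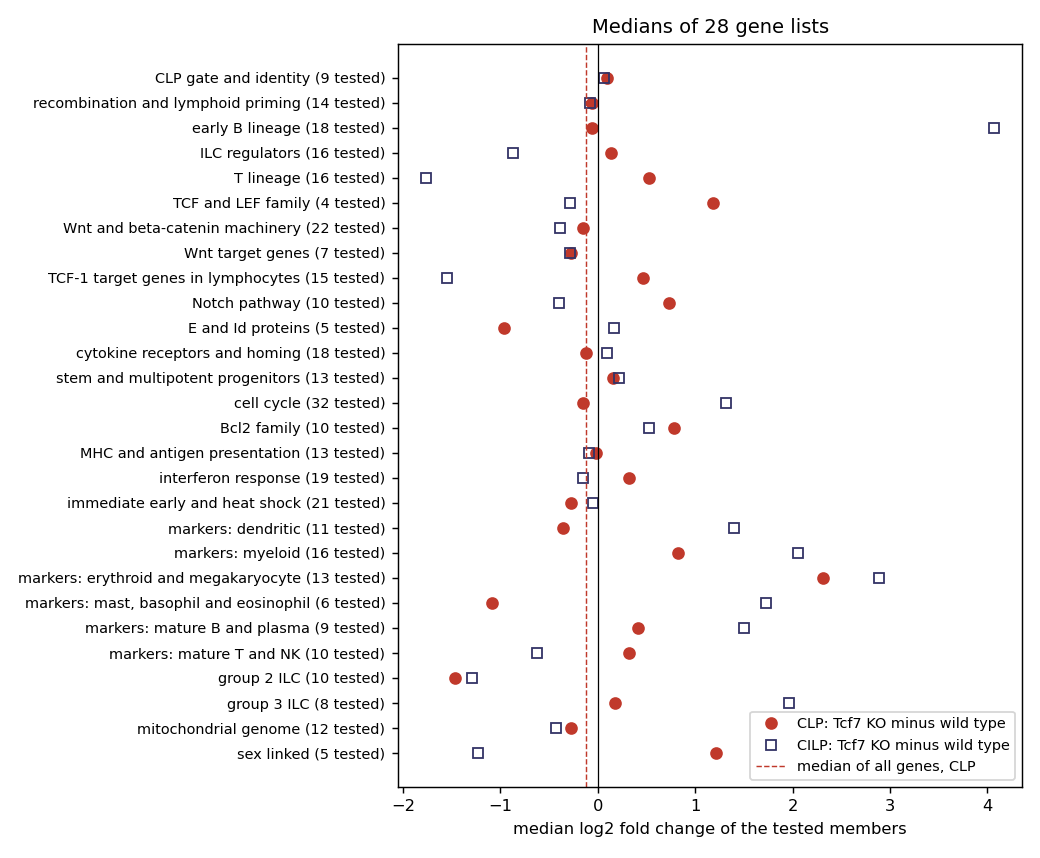
Median log2 fold change, knockout minus wild type, of the tested members of 28 gene lists, with filled circles for CLP and open squares for CILP, and the dashed line at the all-gene median in CLP. The CLP identity and lymphoid priming medians lie near 0 in both populations, and the early B lineage median is -0.06 in CLP and 4.07 in CILP.

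For 9 genes (0.082% of those tested) the 5 knockout values did not overlap the 8 wild-type values. They were singled out after their values were seen, and none was called. The genes higher in the knockout were Rnf144a, Sgf29, Rpusd4, Ccr2 and Nod1 (0.0456%), and those lower were H1f5, Ssbp2, Stk3 and Commd4 (0.0365%). Rnf144a, a ubiquitin ligase gene, had at most 77.5 CPM in wild type and 215, 103, 131, 138 and 104 CPM in the knockout. Sgf29, a subunit gene of the SAGA complex, had at most 29.8 CPM in wild type and 71.5, 167, 78.4, 162 and 34.8 CPM in the knockout (log2 change 2.55, SE 1.01, unadjusted p = 0.0114). Ccr2, a chemokine receptor gene, had at most 11.9 CPM in wild type and 12.8 to 49.7 CPM in the knockout, so its ranges almost touch. Rpusd4 had at most 8.17 CPM and then 14.9 to 47.6 CPM. Nod1, a bacterial sensor gene, had 1 wild-type library at 5.96 CPM, and 8.94, 180, 71.9, 19.1 and 9.94 CPM in the knockout.

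In the other direction, the linker histone gene H1f5 had 85.5, 129 and 330 CPM in wild type and 0, 0, 0, 57.2 and 84.5 CPM in the knockout (log2 change -2.94, SE 1.10, unadjusted p = 0.00752). Ssbp2, which encodes a single-stranded DNA binding protein of the LDB1 complex, had 11.02 to 131 CPM in wild type and 0 to 8.94 in the knockout. Stk3, a Hippo pathway kinase gene, had 16.97 to 225 CPM in wild type and 0 to 14.9 in the knockout. Commd4 had 38.3 to 286 CPM in wild type and 0 to 34.8 in the knockout. The gaps between the groups were small beside the ranges, and adjusted p-values of these 9 genes ran from 0.422 to 0.870 by edgeR.

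The other genes with the smallest p-values mostly rested on few libraries or low counts. Phka2, a phosphorylase kinase subunit gene, was detected in 7 of 8 wild-type libraries (up to 109 CPM) and in 0 of 5 knockout libraries. Against 3 counts over the knockout group it was at least 10.2-fold lower, with an adjusted p of 0.422 by edgeR and 0.0293 by limma-voom, the lowest of its alternatives (highest 0.616). H2-Oa, an MHC class II chaperone gene of B cells, had 0, 142 and 384 CPM in wild type and 8.94, 0, 13.1, 28.6 and 29.8 CPM in the knockout, with an overlap at 0 (log2 change -3.58, SE 1.11, adjusted p 0.422, edgeR). Il3ra, the IL-3 receptor α chain, was found in 4 wild-type libraries (24.4 to 110 CPM) and no knockout library. P2ry12, a purinergic receptor gene, had 328 CPM in wild-type replicate 3, 0 to 33.4 CPM in the other wild-type libraries and 0 in the knockout. Among higher genes, Ampd3 had 447 CPM in knockout replicate 1 and 0 to 24.8 in the other knockout libraries. Gch1 had 0, 103, 32.7, 0 and 149 CPM in the knockout, against 1 wild-type library with 6.11 CPM. Rsad2, an interferon-induced gene, had 224, 12.8, 32.7, 0 and 59.6 CPM, against 1 wild-type library with 12.2 CPM.

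**Figure D4:**
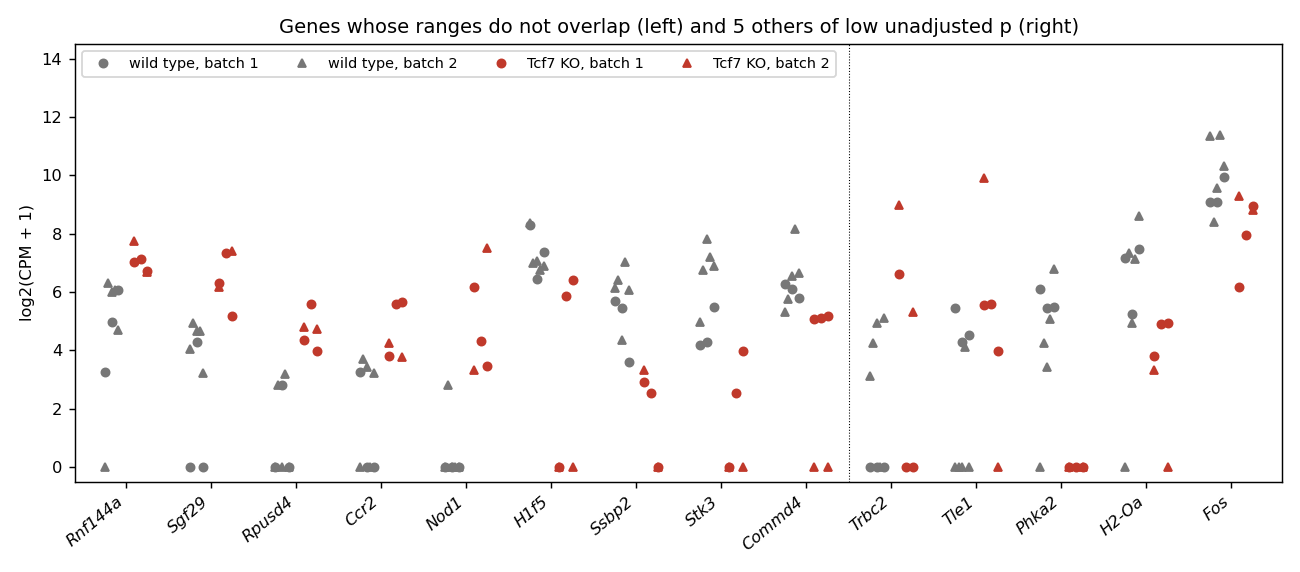
Values in log2(CPM + 1) of the 9 genes whose ranges do not overlap (left of the dotted line) and of 5 other genes of low unadjusted p (right), with the colours and symbols of the CLP identity plot. On the right, the high red triangles for Trbc2 (501 CPM) and Tle1 (948 CPM) are the same library, knockout replicate 1.

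Transcripts of other cell types were uneven between libraries. The 17 myeloid markers summed to 137 to 621 CPM in wild type and 183 to 4427 CPM in the knockout. The top value belonged to knockout replicate 4, in which S100a8 and S100a9 reached 1735 and 2078 CPM, against 0 to 12.8 CPM in the 12 other libraries. Of the 17 markers, 6 were at 0 in all 13 libraries. The 14 measured erythroid and megakaryocyte markers summed to 7.67 to 551 CPM in wild type (median 128) and 8.94 to 2231 CPM in the knockout (median 575). Of the 13 tested, 11 were fitted above 0, beside 4908 of all 10972 genes, and 0 were called. Their median log2 change of 2.31 was the highest in CLP of the 28 lists, beside -0.13 for all genes. Of the 14 measured, 2 were at 0 in all 13 libraries. The median thus includes a tested gene whose fitted value is not a measured change. Hba-a2, an α-globin gene, had 314, 758 and 1034 CPM in knockout replicates 3, 4 and 5. Wild-type replicate 6 of that batch had 272 CPM, and the other wild-type libraries had 0 to 17.9. All 3 knockout libraries of batch 1 thus lay above every wild-type library, and those of batch 2 (0 and 12.8 CPM) did not. Car1 was in 2 wild-type libraries (59.6 and 385 CPM) and no knockout library. The 10 mature B and plasma cell markers summed to 353 to 3102 and 286 to 2539 CPM, with Igha at 161 CPM in knockout replicate 1. Mast, basophil and eosinophil markers summed to 0 in the median library of both groups. With no filter on low counts, S100a8, S100a9, Hba-a2, Hbb-b1, Igha and Car1 were among the 18 genes that edgeR called. The part of these transcripts in the comparison was not tested. Leaving out any one of the 13 libraries gave 0 or 1 call.

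Several lineage genes stood at different levels in the 2 batches, in wild type and knockout. Irf8, a factor of the dendritic and B lineages, had 25.1 to 307 CPM in batch 2 and 1773 to 4199 CPM in batch 1 in wild type. In the knockout it had 12.8 and 143 CPM in batch 2 and 2228 to 2888 CPM in batch 1. Tcf4, the E protein of plasmacytoid dendritic cells, had 345 to 754 and 1553 to 3713 CPM in wild type, and 384 to 821 and 1973 to 2731 CPM in the knockout. Ighm ran the other way, with 1135 to 2681 CPM in batch 2 and 0 to 220 in batch 1 in wild type, and 590 to 2128 and 6.53 to 28.6 in the knockout. Siglech, another plasmacytoid dendritic gene, overlapped between batches (49.0 to 583 and 308 to 1281 CPM in wild type). Batch was an additive term of the model, shared by all populations, so a batch shift particular to CLP was not fitted separately. With the batches fitted alone edgeR called 1 gene in batch 1 (Car1, lower, adjusted p 0.000508) and 0 in batch 2, with 634 there at an unadjusted p under 0.05. Car1 was also called with no filter (adjusted p 0.0103, edgeR), and its adjusted p reached 1.0 in another alternative. In batch 2 alone the median log2 change of all genes was -0.55. Across 2412 abundant genes, Spearman's rho between libraries of batch 1 was 0.631 to 0.696 within wild type and 0.574 to 0.688 between genotypes. In batch 2 it was 0.433 to 0.527 within wild type, 0.328 to 0.437 between genotypes and 0.33 for the knockout pair, whose libraries held the fewest genes.

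The same knockout was compared with wild type in CILP to ask whether genes responded differently at the next stage. The interaction test (effect in CILP minus effect in CLP) called 5 of 10972 genes (0.0456%), with 996 (9.08%) at an unadjusted p under 0.05. The 5 were Bcl11b and Lmo4, whose effect was more negative in CILP, and Blk, Cybb and Lmo2, whose effect was more positive. In CILP itself, 46 genes rose and 9 fell (0.419% and 0.082%). All 4 groups contributed separate libraries, 7 of wild-type and 4 of knockout CILP. For each of the 5 genes the knockout effect in CLP was not called.

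Bcl11b had the smallest p-value of the interaction. Wild-type CILP held 517 ± 237 CPM (SD, n = 7), with 160 in the lowest library, and knockout CILP held 0, 28.5, 0 and 0 CPM, with no overlap. In CLP of either genotype it was at 17.9 CPM or less. The interaction was -7.79 (log2, SE 1.59, adjusted p 0.00314, edgeR). It was called in 23 of 24 fits that each left out 1 library, and missed without knockout CLP replicate 5 (adjusted p 0.0515, the highest of its alternatives, with 9.92e-06 the lowest). Without that library edgeR called 0 genes, with 989 at an unadjusted p under 0.05. Over the 24 such fits the count ran from 0 to 8. With the gene at or near 0 in wild-type CLP, a lower level in the knockout was not detectable there at this depth. The promoter table (RefSeq, GRCm38.p6) was searched for the TCF-type letters CTTTGAA and CTTTGAT on both strands in the 250 bases before each start. Of all promoters, 7.5% held at least 1 match. Bcl11b held 1, beginning 89 bases before the start, and it is shown because Bcl11b is the gene with the smallest interaction p-value. The 60 bases around it lie at chr12:108003464-108003523 on the minus strand and are printed 5′ to 3′ in gene direction, with the matched letters in capitals.
Bcl11b: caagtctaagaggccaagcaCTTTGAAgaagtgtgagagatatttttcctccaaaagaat
No match was in the listed promoters of Tcf7, Lmo4 (3 starts) or Cybb, and Blk and Lmo2 were not searched. A match is a description of letters and not evidence of binding.

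Lmo4 was the most abundant of the 5 in wild-type CILP, at 2547 ± 602 CPM (n = 7), and knockout CILP had 200, 507, 957 and 160 CPM, all below the lowest wild-type library (1683 CPM). CLP of both genotypes stood at 55.1 to 295 CPM. The interaction was -3.07 (SE 0.69, adjusted p 0.0380, edgeR). Blk, a Src family kinase gene of B cells, was listed at 0 in all 7 wild-type CILP libraries and had 160, 101, 89.4 and 160 CPM in knockout CILP. In CLP it had 24.4, 51.3 and 251 CPM in wild type and 26.8, 77.0, 19.6, 42.9 and 44.7 CPM in the knockout, which overlap (log2 change -0.77, SE 1.06). The interaction had an adjusted p of 0.0255 by edgeR. Its fitted size depends on the prior count, since 1 group is at 0.

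Cybb, the phagocyte oxidase subunit gene, split the knockout CILP libraries into 1460 and 872 CPM in replicates 1 and 4 and 0 in replicates 2 and 3. Wild-type CILP had 1 library at 1.90 CPM and 6 at 0. In CLP it averaged 96.7 ± 122 against 163 ± 120 CPM (log2 change 0.85, SE 0.91). The interaction was 7.81 (SE 1.86, adjusted p 0.0261, edgeR). Lmo2, a LIM-only factor of stem and progenitor cells, had 840, 184, 0 and 320 CPM in knockout CILP and at most 11.9 CPM in wild-type CILP. In CLP it averaged 351 ± 190 against 256 ± 392.3 CPM, and knockout replicate 4 held 958 CPM while the other 4 knockout libraries held 69.6 to 103. The interaction was 6.27 (SE 1.44, adjusted p 0.0380, edgeR). Replicates 1 and 4 of knockout CILP also held less Il7r (59.99 and 267 CPM) than replicates 2 and 3 (2013 and 1851 CPM), so the knockout CILP libraries differ among themselves. Of these genes, Blk was called in 17 of 24 fits that left out 1 library, Cybb in 14, Lmo2 in 11 and Lmo4 in 9.

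**Figure D5:**
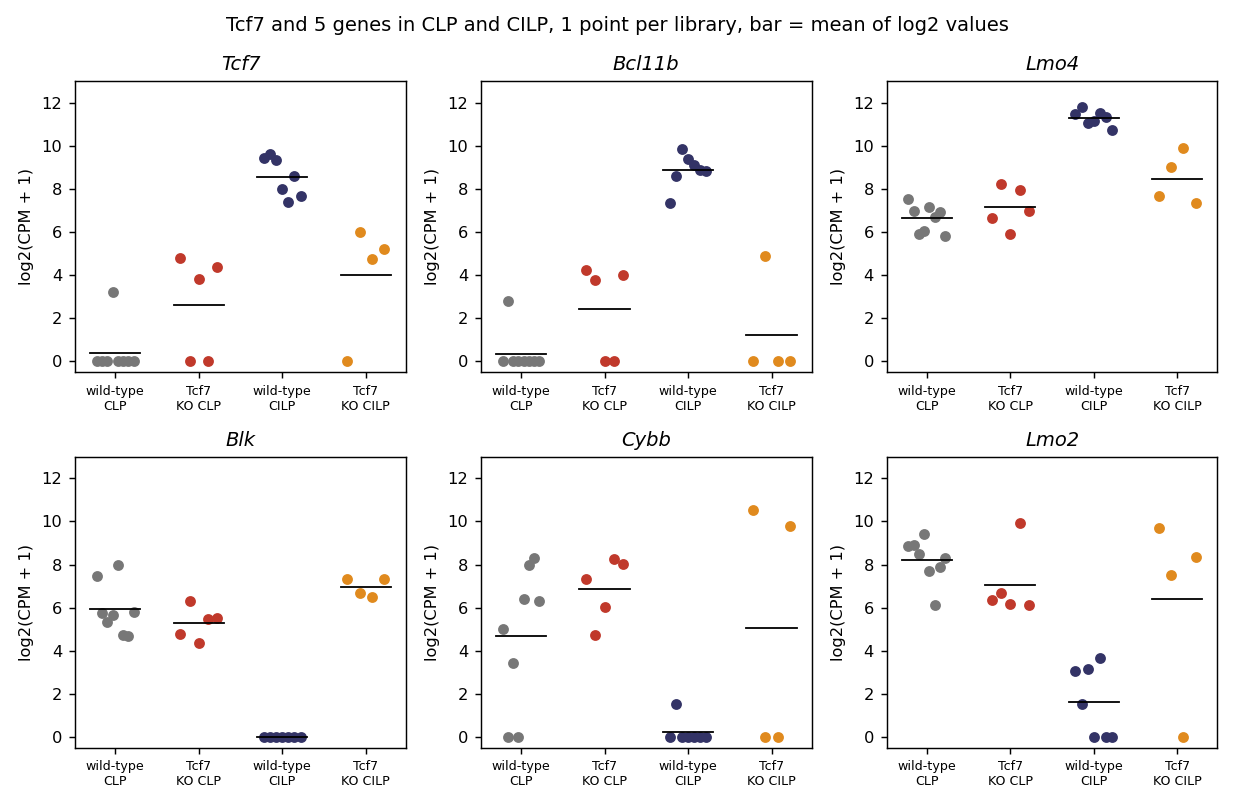
Tcf7 and the 5 genes called in the interaction, in log2(CPM + 1), with 1 point per library and a bar at the mean of the log2 values in wild-type CLP, knockout CLP, wild-type CILP and knockout CILP. For Bcl11b and Lmo4 wild-type CILP stands above the other groups, and for Blk, Cybb and Lmo2 wild-type CILP stands at or near 0.

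Genes beside the targeted locus gave no call. Of 60 tested genes within 5 Mb of Tcf7, 0 were called, 2 had an unadjusted p under 0.05 as higher and 1 as lower (6.5% of all genes had one in either direction), and the median log2 change was -0.24. The median of all genes was -0.13.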

How the data were processed

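The authors deposited raw read counts, keyed by Entrez gene, with the 2 batches in separate tables. The submitters' processing notes name CASAVA 1.8.2, the build mm10, featureCounts, limma and edgeR. Which aligner was used is not stated there. Of 27179 identifiers, 25275 (92.99%) matched RefSeq of GRCm38.p6. Value columns lacking a sample numbered 0.

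Both technical repeats were summed into their parent. The comparison used edgeR 4.0.16 in R 4.3.3, with a filter by group (at least 10 counts, and 15 over all libraries). TMM scaling was followed by a robust quasi-likelihood fit of group means plus batch over 47 libraries (35 residual degrees of freedom). Controls, Nfil samples and the wild-type CILP library marked as an outlier by the submitters were left out. The threshold was an adjusted p (Benjamini-Hochberg, 10972 genes) under 0.05. CPM values used TMM-scaled totals. An SE is the change before shrinkage by the prior count, over the root of the test statistic. Printed log2 changes are the shrunken ones, and intervals (95%) are centred on them. Intervals are therefore approximate, and one can include 0 where the unadjusted p of the edgeR test is under 0.05. A bound was set against 3 counts over a group. Single values were compared by exact permutation within batch: Tcf7 as log2(CPM + 1), library totals in log2, and genes with a count untransformed. The mitochondrial percent of counts was compared in the same way (p = 0.814, exact permutation).

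Genes named were Tcf7, called genes, up to 10 genes per direction with the smallest p at a mean of at least 20 CPM and the same sign in both batches, all CLP identity and TCF family genes, some members of 28 lists by level or p, and 5 interaction genes. Not every gene that this rule selects is described. Rag1 is one of the CLP markers, and Trbc1 and the 9 genes without overlap were added after their values were seen. Members, lists and rules were chosen with earlier results of these data known. The fit was also run on simulated data with the same spread for every gene and no batch effect. That run is unlike these libraries and is not used as evidence here. Alternatives were DESeq2 1.42.0, limma-voom (limma 3.58.1), DESeq2's size factors, omitting the filter or the batch term, fitting batches singly, fitting the compared groups by themselves, omitting technical repeats, restoring the outlier, dropping shallow libraries (under 20% of the median of their batch), and dropping each library in turn.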

Additional observations from a re-analysis of the deposited data

Results flagged for a closer look

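The genes Bcl11b, Blk, Cybb, Lmo2 and Lmo4 were called by the interaction test of edgeR, which compares the effect in CILP with that in CLP, as described above. With Bcl11b at or near 0 in wild-type CLP, a lower level in the knockout could not be seen there. A response particular to CILP can therefore not be read from its interaction. The differences were -7.79 for Bcl11b, 8.19 for Blk, 7.81 for Cybb, 6.27 for Lmo2 and -3.07 for Lmo4 on the log2 scale. Their sizes are uncertain, and for Bcl11b, Blk, Cybb and Lmo2 at least 1 of the 4 groups lay at or near 0. Over all alternatives Cybb ran from 2.16 (limma-voom) to 8.79, Blk from 5.31 (limma-voom) to 8.60, Lmo2 from 4.27 to 8.02 and Lmo4 from -3.72 to -2.73. Bcl11b ran from -11.6 (without knockout CILP replicate 2) to -6.51.

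In 160 groups of values (3 library measures and the genes named, in each genotype) 22 had 1 library far from the others. Chance gives about 1 in 20, a rate that does not hold for a group in which all libraries but 1 are at 0, so the number is not read against it. In knockout CLP, replicate 4 stood high for S100a8 (1735 CPM), Lmo2 (958 CPM), Ikzf3 (14.3 CPM) and Id3 (4.76 CPM). Knockout replicate 1 stood high for Il7r (1752 CPM) and low for Tle3 (0 CPM). Knockout replicate 2 was at 0 CPM for Ly6a and Ctbp1. Knockout replicate 5 was low for Kit (4.97 CPM) and alone in having Tcf7l1 (4.97 CPM), and replicate 3 was low for Vpreb1 (6.53 CPM).

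In wild-type CLP, a single library held the only transcripts of Tcf7 (8.17 CPM), Bcl11b (5.96 CPM), Nod1 (5.96 CPM), Gch1 (6.11 CPM), Tcf7l1 (6.11 CPM) and Rsad2 (12.2 CPM). Single libraries were at 0 CPM for Tcf7l2, Cd27, H2-Oa and Ighm, and replicate 8 was low for Csnk1a1 (55.1 CPM). Values at a few CPM are 1 to 3 counts in these libraries.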

How the results depend on the processing

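The count of called genes in CLP was 0 in the reported fit and with no batch term, batch 2 alone, only the compared groups (3504 genes tested), no technical repeats and the outlier put back, with 173 to 957 genes at an unadjusted p under 0.05 (edgeR). It was 1 with DESeq2, with DESeq2's size factors and with shallow libraries left out (Trbc2 each time), 1 in batch 1 alone (Car1), 9 with limma-voom and 18 with no filter, which tests 17710 genes. The shallow libraries were replicates 1 and 3 of the wild-type ILC2P population, so no CLP library was dropped with them. Leaving out each of the 13 CLP libraries gave 0 to 1. The interaction count of 5 became 21 with DESeq2, 39 with limma-voom, 10 with DESeq2's size factors, 31 with no filter and 3 with no batch term, and ran from 0 to 8 when 1 of 24 libraries was left out. It was 1 or fewer without wild-type CILP replicate 2, 3 or 5, knockout CILP replicate 4, or knockout CLP replicate 2 or 5. It was 2 or 3 without wild-type CLP replicate 4 or 8, wild-type CILP replicate 6 or 7, knockout CLP replicate 3 or knockout CILP replicate 1, and 8 without knockout CILP replicate 2. The causes were not tested. In batch 1 alone the knockout had higher log2 totals (0.703) and more genes (597), against -0.0634 and -468 over both batches. The Tcf7 difference in log2(CPM + 1) kept its sign in each batch alone and with a pseudocount of 5. Of 77 named genes tested in CLP, 41 kept the sign of their fitted change in every alternative and 36 did not, and 9 were called in at least 1 alternative. No paired analysis was possible because replicate numbers follow accession order and pair no samples. Depth limits genes under about 20 CPM in these libraries, where a count of 3 is 14.3 to 38.5 CPM.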

Other observations

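Tcf7 transcripts were rare in CLP of every genotype. The 2 CLP libraries labelled Nfil and the 2 Id2 knockout CLP libraries held 0 Tcf7 counts, beside 1 in the 8 wild-type and 9 in the 5 Tcf7 knockout libraries. The 5 wild-type α4β7+ CLP libraries held 44 counts, with 2 to 24 in each. The 12 control wells with spike-in RNA alone held 0 Tcf7 counts, but 16 of Dntt, 14 of Id2 and 2 of Bcl11b.

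The knockout in CLP and in CILP can be set side by side by list. The early B lineage median was -0.06 in CLP and 4.07 in CILP, the cell cycle median -0.15 and 1.32, and the T lineage median 0.52 and -1.76. The T lineage median in CLP includes tested genes with no CLP count. The differences between the 2 populations were not tested by list.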
